A study of Mus musculus with 16 samples.

Results

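The interleukin-1 (IL-1) family and inflammasome genes were followed here through the hippocampus of tau transgenic and control mice, with and without Ch25h. These were 10 of the 55487 genes in the table of all 16 libraries, found by their symbols: Il1a, Il1b, Il1rn, Il18, Il33, Casp1, Casp4, Nlrp3, Pycard and Gsdmd. RNA was sequenced from the right hippocampus of PBS-perfused female mice aged 40 weeks, or to 9.5 months by the treatment protocol, in 4 genotypes with 4 libraries each. TCKO mice carried the PS19 tau transgene and lacked Ch25h, the gene of cholesterol 25-hydroxylase, the enzyme that makes 25-hydroxycholesterol. T mice carried the transgene with Ch25h intact, CKO mice lacked Ch25h without the transgene, and WT mice had neither change. PS19 is a line expressing 1N4R human tau (MAPT) with the P301S mutation, a cause of familial frontotemporal dementia, from the PrP promoter.

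IL-1α and IL-1β bind the same receptor, IL-1R1, which signals through the adaptor MyD88, and the antagonist encoded by Il1rn occupies that receptor without activating it. IL-1β and IL-18 are made as inactive precursors. They are cut by caspase-1 after a sensor such as NLRP3 has assembled with the adaptor ASC, the product of Pycard. Caspase-1, and the lipopolysaccharide-sensing caspase encoded by Casp4, also cleave gasdermin D, whose freed fragment opens pores in the membrane. IL-33 is a nuclear cytokine released by damaged cells, and in the brain it is made mainly by astrocytes and oligodendrocytes, whereas most inflammasome genes are transcribed chiefly in microglia.

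Library totals ran from 15.06 to 34.35 M estimated reads. Ch25h had 0, 1, 1 and 0 reads in the TCKO libraries, 300, 149, 154 and 133 in the T libraries, 2, 0, 0 and 1 in the CKO libraries and 18, 25, 20 and 40 in the WT libraries, so the counts went with the genotype labels. Levels are given as CPM (counts relative to the TMM-scaled size of each library). Fold changes are on the log2 scale with their SE over n = 4 libraries a group, and a gene was called at a Benjamini-Hochberg adjusted p under 0.05 in edgeR's quasi-likelihood test over 18565 genes. Replicate numbers in the labels do not state separate mice, and the p-values therefore describe only how these libraries vary. In bulk tissue, fewer cells of a type and less RNA per cell cannot be told apart.

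With the tau transgene, both IL-1 cytokines, their antagonist, Il33, both caspases, the ASC gene and gasdermin D rose. Of the 10 genes, 8 were higher in T than in WT and 0 were lower, where 13% of all genes tested were called higher and 11.2% lower. Their median log2 fold change was 2.02, beside a median of −0.01 over all genes tested. Il18 and Nlrp3 did not pass. In TCKO hippocampus 7 of the 10 were lower than in T and 0 were higher, where 8.05% of all genes tested were called lower and 4.81% higher, with a median of −1.78 beside 0.02 over all genes. Il18, Il33 and Nlrp3 did not pass in that comparison. The T libraries did not overlap with the WT libraries for 8 of the 10, all higher, as for 13.3% of all genes tested. They did not overlap with the TCKO libraries for 8 of the 10, all lower in TCKO, as for 9.65% of all genes. All 10 passed the filter on low counts.

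**Figure D1:**
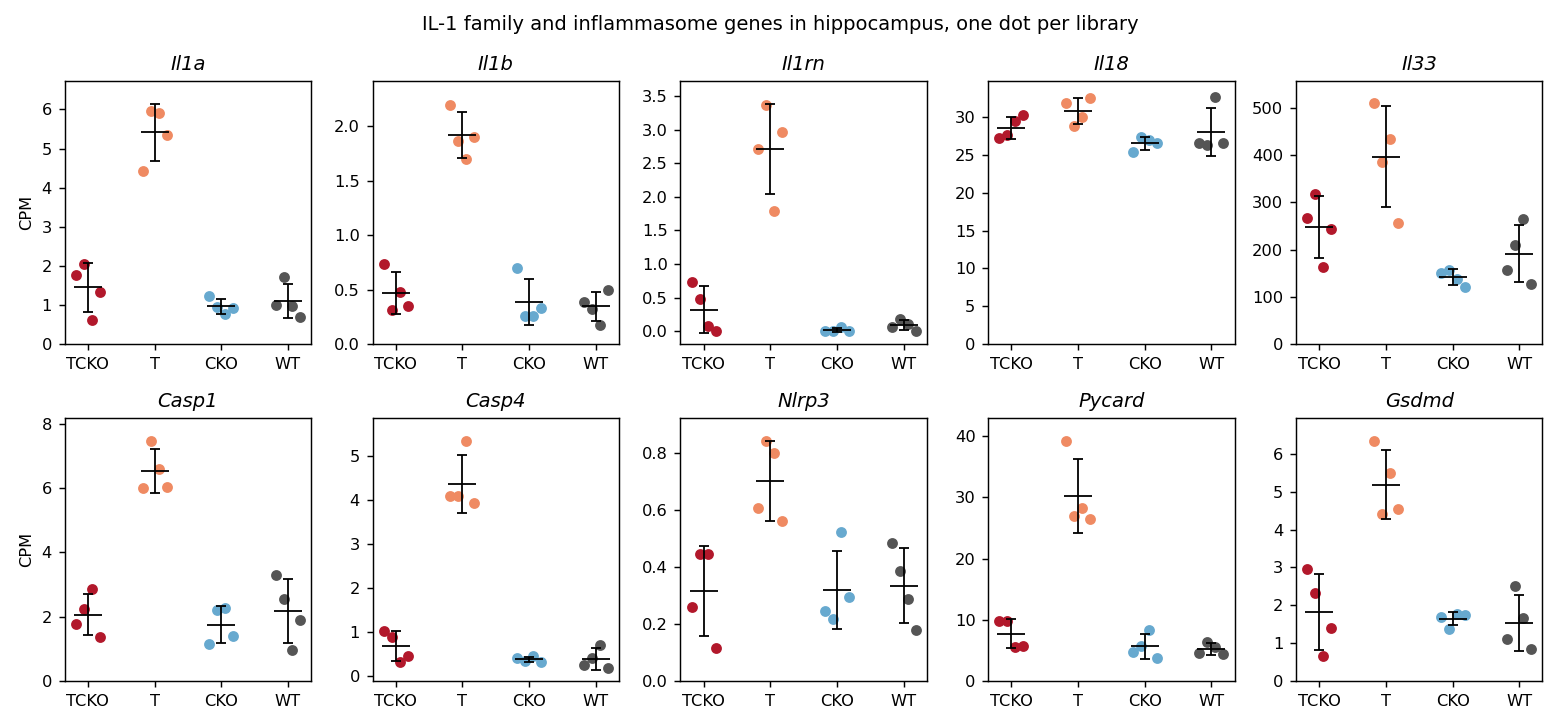
CPM of each of the 10 genes in every library, with 1 point a library, groups in the order TCKO, T, CKO and WT, and a dash with whiskers for the mean ± SD. The T libraries lie above all others for Il1a, Il1b, Il1rn, Casp1, Casp4, Nlrp3, Pycard and Gsdmd, while the groups overlap for Il18.

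Promoters of Il1a, Il1rn and Pycard, the only genes with a match to a motif searched for, are shown beside that of Il18. RefSeq on GRCm38.p6 gave 14 promoters for 9 of the 10 genes, each running from 250 bases before to 50 after a start. The sequences of Il1a (chr2:129309923-129310222, minus strand), Il1rn (its first promoter, chr2:24336610-24336909, plus strand), Pycard (chr7:127993818-127994117, minus strand) and Il18 (chr9:50554450-50554749, plus strand) read 5′ to 3′:
Il1a: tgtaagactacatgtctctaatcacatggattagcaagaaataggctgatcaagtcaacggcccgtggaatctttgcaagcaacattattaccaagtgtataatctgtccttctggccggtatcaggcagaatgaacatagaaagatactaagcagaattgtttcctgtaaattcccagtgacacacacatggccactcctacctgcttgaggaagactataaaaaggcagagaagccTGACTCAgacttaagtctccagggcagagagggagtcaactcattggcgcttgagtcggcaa
Il1rn: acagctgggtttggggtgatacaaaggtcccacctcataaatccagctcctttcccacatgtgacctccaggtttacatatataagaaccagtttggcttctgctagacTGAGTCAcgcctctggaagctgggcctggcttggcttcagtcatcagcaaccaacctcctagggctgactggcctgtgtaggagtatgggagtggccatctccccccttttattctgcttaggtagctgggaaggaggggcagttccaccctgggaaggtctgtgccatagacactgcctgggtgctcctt
Pycard: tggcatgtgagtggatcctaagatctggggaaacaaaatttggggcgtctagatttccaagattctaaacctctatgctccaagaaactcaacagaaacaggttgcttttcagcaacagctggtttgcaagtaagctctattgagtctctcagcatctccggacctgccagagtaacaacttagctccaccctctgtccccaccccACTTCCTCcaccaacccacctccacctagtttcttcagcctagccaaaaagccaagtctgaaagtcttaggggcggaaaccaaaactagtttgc
Il18: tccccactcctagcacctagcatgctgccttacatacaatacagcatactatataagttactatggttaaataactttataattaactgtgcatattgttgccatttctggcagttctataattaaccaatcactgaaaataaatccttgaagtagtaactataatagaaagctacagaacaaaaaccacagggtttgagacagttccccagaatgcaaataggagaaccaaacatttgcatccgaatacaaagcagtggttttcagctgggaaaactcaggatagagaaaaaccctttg
Capitals mark matches to the AP-1 motif TGANTCA in Il1a and Il1rn, and to the PU.1 motif GAGGAAGT, read on the opposite strand, in Pycard. On either strand the AP-1 letters stood in 2 of the 14 promoters and in 7.81% of all 32851 promoters in the table. The PU.1 letters stood in 1 of the 14 and in 3.2% of all. The match began 12 bases upstream of the Il1a start, 141 bases upstream in Il1rn and 44 bases upstream in Pycard. The interferon-response core (GAAA, any 2 bases, GAAA), found in 3.44% of all promoters, and the STAT motif TTCNNNGAA, found in 8.3%, were in 0 of the 14. The Il18 window, of the gene whose level moved least, held none of the 4 motifs. Neither did any promoter of Il1b, Casp1, Casp4, Il33 or Nlrp3, or the other promoters of Il1rn. The matches thus did not separate genes called in T against WT from Il18. A match is a description of these letters and not a binding site.

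The agonist cytokines Il1a and Il1b were low in every genotype but T. Il1a (GRCm38 chromosome 2, 129299610 to 129309972) had 1.78, 2.06, 0.63 and 1.33 CPM in the TCKO libraries, 4.43, 5.97, 5.92 and 5.34 in the T libraries, 1.23, 0.948, 0.781 and 0.918 in the CKO libraries and 1, 1.72, 0.972 and 0.706 in the WT libraries. The lowest T library stood above every other library, and TCKO replicate 4 was the lowest of all 16. Il1a was 4.89-fold higher in T than in WT (log2 2.29 ± 0.33, adjusted p = 1.14e-04) and fell in TCKO against T by 1.9 ± 0.33 (adjusted p = 0.001). Il1b, 54.6 kb away on the same chromosome (129364570 to 129371139), had 0.737, 0.317, 0.482 and 0.351 CPM in TCKO, 2.2, 1.87, 1.7 and 1.9 in T, 0.696, 0.259, 0.26 and 0.331 in CKO and 0.387, 0.326, 0.18 and 0.494 in WT. Here too the 4 T libraries were clear of the rest, while the other 3 genotypes overlapped. The log2 difference was 2.45 ± 0.4 for T against WT (adjusted p = 3.54e-04) and −2.02 ± 0.39 for TCKO against T (adjusted p = 0.00265). Exons of Il1a share 222 bases with Gm14023 and those of Il1b 25 bases with Il1bos, both on the opposite strand. No source used here states whether the counting used strand, so reads in those stretches cannot be told apart.

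The antagonist Il1rn (chromosome 2, 24336853 to 24351494) had the widest change and was almost unread without the transgene. Its reads numbered 17, 15, 2 and 0 in the TCKO libraries, 85, 92, 56 and 95 in the T libraries, 0, 0, 1 and 0 in the CKO libraries and 2, 6, 3 and 0 in the WT libraries. All T libraries stood far above the others, and among TCKO libraries replicates 2 and 3 held nearly all the reads. The log2 difference was 4.85 ± 0.86 in T against WT (adjusted p = 7.16e-04) and −3.07 ± 0.76 in TCKO against T (adjusted p = 0.0136). Without the transgene, 1 read in CKO against 11 in WT gave a ratio of 0.122, with a 95% counting interval of 0.00283 to 0.838 that covers counting error only, and the test did not pass (adjusted p = 0.524).

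Antagonist reads were also set against agonist reads of the same library. For every 100 reads of Il1a and Il1b together there were 29.3, 20, 6.67 and 0 Il1rn reads in TCKO, 40.9, 43, 23.5 and 40.9 in T, 0, 0, 6.25 and 0 in CKO and 4.65, 8.7, 9.38 and 0 in WT. The 4 T libraries were above all WT libraries, whereas TCKO ran from 0 into the T range. With 0.5 reads added to each count, the log2 ratio was higher in T than in WT by 2.75. The exact two-sided permutation p was 0.0286, the smallest that 4 against 4 allows, or 0.143 adjusted over 5 comparisons. For TCKO against T the log2 difference was −2.05 (exact p = 0.0571, adjusted 0.143). Even T and WT, whose ratios were fully apart, stood at 0.143 after adjustment. With 4 libraries a group this test could hardly pass, so its failure does not show that the ratios are alike.

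Il18, whose product is matured by the same caspase as IL-1β, passed in neither comparison. Il18 (chromosome 9, 50554827 to 50581840) had 27.2, 27.6, 29.5 and 30.2 CPM in TCKO, 31.9, 28.8, 30 and 32.5 in T, 25.4, 27.4, 26.9 and 26.5 in CKO and 26.5, 26.3, 32.7 and 26.5 in WT. The groups overlapped, and WT replicate 4 held the highest value of all. The difference was 0.14 ± 0.09 for T against WT (95% interval −0.05 to 0.33, adjusted p = 0.296) and −0.11 ± 0.09 for TCKO against T (95% interval −0.3 to 0.08, adjusted p = 0.474). Both intervals leave out a change as large as that of any called gene in the list.

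Il33 (chromosome 19, 29925114 to 29960718, 4.51 Mb from Ch25h) was by TPM the most abundant of the 10. It had 267, 318, 163 and 244 CPM in TCKO, 511, 385, 435 and 257 in T, 150, 158, 137 and 121 in CKO and 158, 211, 265 and 128 in WT. It was higher in T than in WT by a log2 value of 1.06 ± 0.24 (adjusted p = 0.00402), although the lowest T library lay below the highest WT library. The difference in TCKO against T, −0.68 ± 0.24, missed the threshold (adjusted p = 0.0669), and it passed in 6 of the 28 alternative settings, among them without T replicate 5 (0.0185) and without TCKO replicate 3 (0.0379). TCKO Il33 lay above CKO Il33 in every library, by 0.81 ± 0.24, without passing (adjusted p = 0.106, or 0.0478 without TCKO replicate 4). It was the 1 gene of the 10 whose TCKO libraries all lay above CKO, as 5.32% of all genes tested did. The summed CPM of 7 oligodendrocyte lineage markers was 11800, 14700, 10900 and 12100 in TCKO, 18300, 13600, 14200 and 8370 in T, 7250, 6750, 6920 and 4420 in CKO and 3990, 10900, 12700 and 2940 in WT. In WT both measures were highest in replicates 4 and 2, and in T both were highest in replicate 2 and lowest in replicate 5. In TCKO both were highest in replicate 3 and lowest in replicate 4. In CKO both were lowest in replicate 5, but Il33 was highest in replicate 2 and the markers in replicate 1. With the oligodendrocyte marker score as a covariate, added after seeing the data, Il33 in T against WT differed by 0.5 (adjusted p = 0.18). In TCKO against T it then differed by −0.54 (adjusted p = 0.0399). The 6 astrocyte markers summed to 2340 to 5170 CPM in TCKO, 7610 to 11000 in T, 1790 to 2060 in CKO and 2210 to 2790 in WT. No astrocyte covariate was tried, and the part of either marker list in the Il33 differences was not tested.

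**Figure D2:**
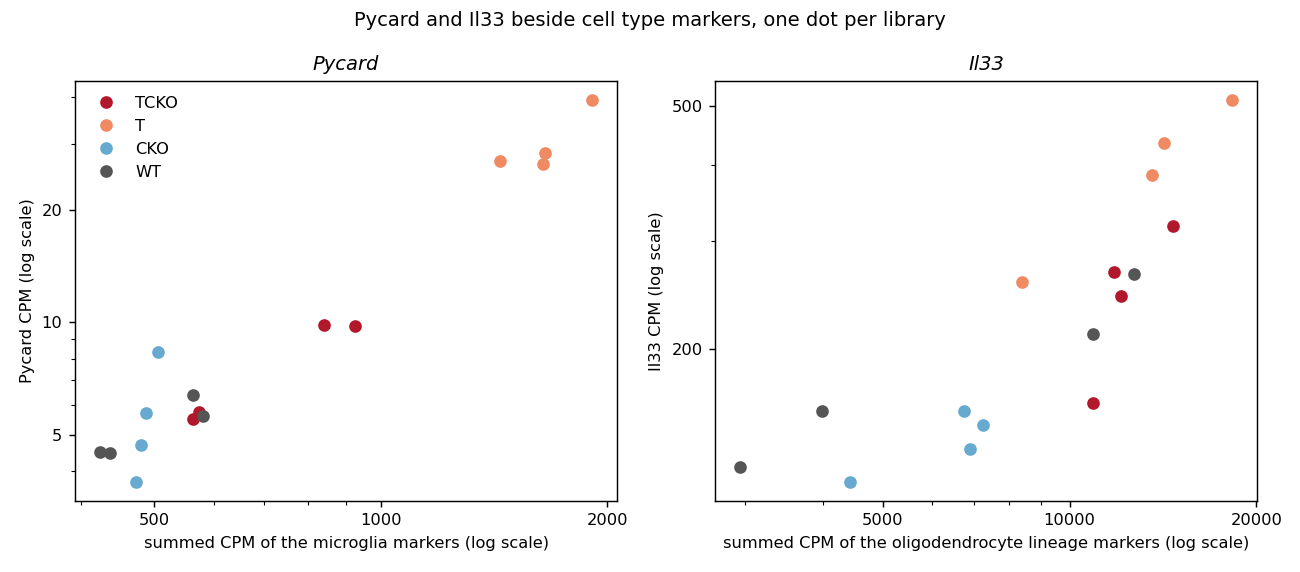
CPM of Pycard against the summed CPM of the microglia markers, and of Il33 against that of the oligodendrocyte lineage markers, all on log axes, with 1 point a library coloured by genotype. The T libraries lie apart at the high end of both axes for Pycard, and for Il33 the WT libraries spread along both axes.

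The inflammasome sensor Nlrp3 had few reads and did not pass, while its adaptor Pycard rose in T. Nlrp3 (chromosome 11, 59541568 to 59566956) had 6, 14, 12 and 3 reads in TCKO, 19, 23, 25 and 18 in T, 6, 5, 8 and 8 in CKO and 15, 13, 8 and 5 in WT. The T libraries did not overlap with any other group in reads or in CPM, but the differences of 1.06 ± 0.44 for T against WT (adjusted p = 0.0949) and −1.12 ± 0.45 for TCKO against T (adjusted p = 0.11) did not pass. Pycard (chromosome 7, 127989708 to 127993867) had 9.8, 9.82, 5.52 and 5.77 CPM in TCKO, 39.2, 27, 28.3 and 26.4 in T, 4.71, 5.73, 8.33 and 3.75 in CKO and 4.49, 6.41, 5.62 and 4.48 in WT. The 4 T libraries were far above the rest. It rose 5.75-fold in T against WT (log2 2.52 ± 0.25, adjusted p = 3.98e-06), the smallest p of the 10, and fell in TCKO against T by 1.97 ± 0.25 (adjusted p = 7.89e-05). Its exons share 485 bases with Gm45205 on the opposite strand, and reads there cannot be told apart.

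The caspases and their shared substrate moved together. Casp1 (chromosome 9, 5298517 to 5307265), which encodes the protease that matures IL-1β, had 1.78, 2.25, 2.85 and 1.37 CPM in TCKO, 6.02, 7.48, 6.59 and 6.03 in T, 1.15, 2.2, 2.28 and 1.4 in CKO and 3.29, 2.55, 0.972 and 1.91 in WT. It gained 1.58 ± 0.33 in T against WT (adjusted p = 0.00237), and TCKO against T differed by −1.66 ± 0.33 (adjusted p = 0.00295). No library outside the T group reached the lowest T value. Casp4, which starts 1562 bases downstream (5308828 to 5336783), had 1.04, 0.887, 0.334 and 0.468 CPM in TCKO, 4.11, 4.1, 5.34 and 3.93 in T, 0.41, 0.345, 0.455 and 0.331 in CKO and 0.258, 0.415, 0.72 and 0.177 in WT. Its 11.1-fold rise in T against WT (log2 3.47 ± 0.41, adjusted p = 1.50e-05) came after that of Il1rn in size, and the TCKO against T difference was −2.67 ± 0.39 (adjusted p = 2.53e-04). No source used here states how reads of these neighbouring, related genes were divided.

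Gsdmd (chromosome 15, 75862327 to 75867408), the pore-forming substrate, had 2.95, 2.31, 0.667 and 1.4 CPM in TCKO, 6.34, 4.4, 5.5 and 4.53 in T, 1.68, 1.38, 1.76 and 1.73 in CKO and 1.1, 2.52, 1.66 and 0.847 in WT. Again the T libraries were clear of the other 12. The difference was 1.76 ± 0.38 in T against WT (adjusted p = 0.00332) and −1.5 ± 0.38 in TCKO against T (adjusted p = 0.0152). The first call was lost with the oligodendrocyte marker covariate (1.3, adjusted p = 0.0793). The second call was lost without T replicate 2 (adjusted p = 0.0529) or without TCKO replicate 5 (0.0548).

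**Figure D3:**
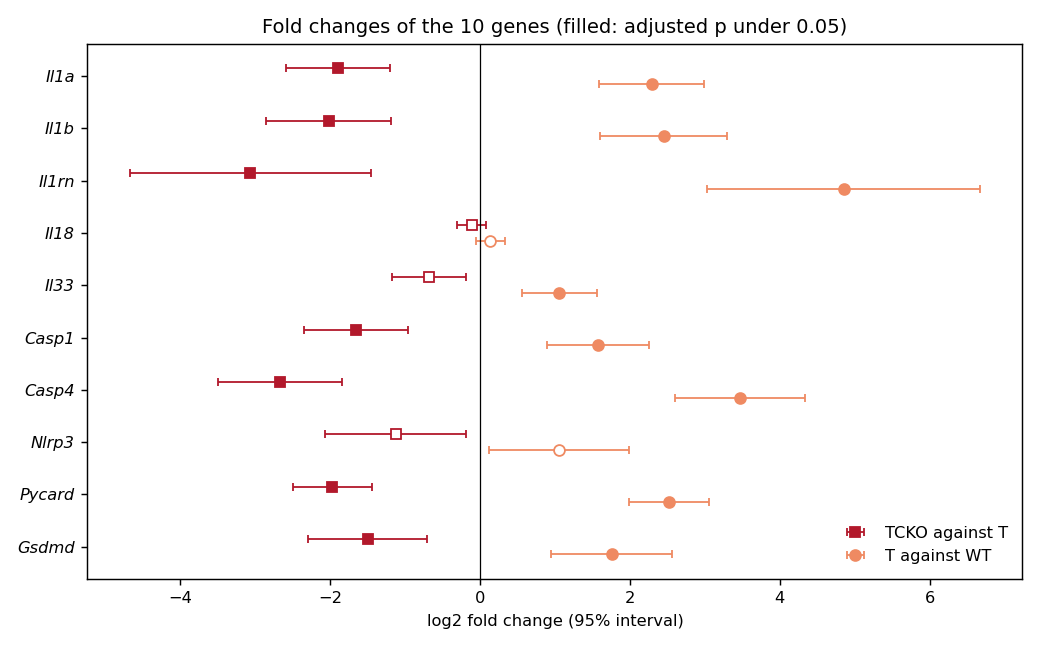
Log2 fold change of each of the 10 genes with its 95% interval for TCKO against T and for T against WT, filled where called. Il1rn, Casp4 and Pycard show the 3 largest differences in T against WT, and Il18 lies near 0 in both comparisons.

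The libraries of a group differed among themselves, in TCKO and WT often more than in T. Il1a had a coefficient of variation of 43% in TCKO, 13.3% in T and 39.5% in WT. That of Casp4 was 49.2% in TCKO, 14.9% in T and 61.1% in WT. For Gsdmd it was 54.7% in TCKO, 17.5% in T and 48.5% in WT. CKO had 19.4% for Il1a, 15.1% for Casp4 and 10.6% for Gsdmd. Reads were fewer outside T, where counting error is wider. Casp4 had 73 reads in the TCKO libraries together, 534 in T, 34 in CKO and 47 in WT. The part of counting error in these spreads was not tested. For Il33 (26.1% in TCKO and 26.9% in T) and Il18 (5.12% in TCKO and 5.6% in T) TCKO was no more variable than T. TCKO replicates 2 and 3 were both above replicates 4 and 5 in Il1a, Il1rn, Il33, Casp4, Pycard and Gsdmd. Il1b, Casp1 and Nlrp3 showed no such order, and Il18 ran the other way. The summed CPM of 8 microglia markers was 923, 840, 563 and 573 in the same 4 libraries, and that of 6 astrocyte markers was 5170, 4230, 2480 and 2340. The part of these markers in the spread was not tested.

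Against genotypes without the transgene, few TCKO differences were seen. Of the 10 genes 0 were called in TCKO against WT, where 0.302% of all genes tested were called, and 0 by DESeq2, while 1 had an unadjusted p under 0.05. That gene was Pycard, at 0.56 ± 0.25 (adjusted p = 0.302). In TCKO against CKO 0 were called by edgeR, where it called 0.539% of all genes tested, and 2 had an unadjusted p under 0.05, namely Il33 and Il1rn. DESeq2 called 2 of the 10 and 765 genes in all. Il1rn had 34 reads in TCKO and 1 in CKO. The ratio of these pooled reads was 28.6, with a 95% interval of 4.8 to 1160 that covers counting error only. By edgeR, which takes in the spread between libraries, the log2 difference was 4.34 ± 1.28 (adjusted p = 0.108, or 0.0454 without TCKO replicate 5). The median over the 10 was 0.38 in TCKO against WT, beside 0.02 over all genes, and 0.36 in TCKO against CKO, beside 0.01.

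Loss of Ch25h without the transgene moved none of the 10 past the threshold. In CKO against WT 0 were called by edgeR and 0 by DESeq2, 0 had an unadjusted p under 0.05, and 0.0108% of all genes tested were called. The log2 differences ran from −2.56 for Il1rn to 0.17, with a median of −0.1 beside −0.01 over all genes, and Il33 stood at −0.43 ± 0.24 (adjusted p = 0.511). Across the 4 genotypes T had the highest mean CPM for all 10, though its Il18 and Il33 libraries overlapped with those of WT and TCKO. Among TCKO, CKO and WT, edgeR's test called none of the 10. That does not show these genotypes to be alike, since DESeq2 called Il1rn and Il33 in TCKO against CKO.

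Whether the tau difference itself depended on Ch25h was tested as an interaction, (TCKO minus CKO) minus (T minus WT). Pycard, Casp4 and Il1b were called, 3 of 10 and all negative, where 2.45% of all genes tested were called lower. The median over the 10 was −1.46, beside 0.03 over all genes. The same interaction was called lower for 6 of 8 microglia markers (median −1.08) and 2 of 6 astrocyte markers (median −0.68). A negative interaction was thus not particular to the 10 genes. Pycard had an interaction of −2.05 ± 0.35 on the log2 scale (adjusted p = 0.00558), and this call held in all 27 alternatives. Casp4 had an interaction of −2.64 ± 0.58 (adjusted p = 0.0215), lost without CKO replicate 4 (0.0505) and without the choroid-rich T replicate 4 and WT replicate 1 (0.0743). Il1b had −2.19 ± 0.58 (adjusted p = 0.0479), and this was lost in 17 of the 27 alternatives, 14 of them leaving out 1 library, and with replicate number as a block (0.0585). Among the settings that left out 1 library, it was kept without T replicate 5 (0.0456) and without TCKO replicate 2 (0.0298). Il1a stood at −1.72 ± 0.47 (adjusted p = 0.0573) and passed without WT replicate 2 (0.0313), TCKO replicate 3 (0.0372) or TCKO replicate 4 (0.0469). Gsdmd stood at −1.59 ± 0.54 (0.115) and Casp1 at −1.33 ± 0.46 (0.126). Il1rn, with the widest change in T against WT, had an interaction of −0.5 ± 11.56 (adjusted p = 0.989). Its log2 difference was 4.34 ± 1.28 in TCKO against CKO and 4.85 ± 0.86 in T against WT. With 1 Il1rn read in CKO and so wide an SE, the test could not decide whether its tau difference depended on Ch25h.

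Per transcript length, the 10 genes spanned a wide range of abundance. By the authors' TPM (means ± SD, n = 4), Il33 led with 208 ± 50.8 in T and 101 ± 29.8 in WT. Pycard had 61.4 ± 12.1 TPM in T and 8.87 ± 3.26 in WT, so that it stood above Il18 in T (55 ± 2.37) and below it in WT (49.8 ± 4.07). Casp1, Casp4, Gsdmd and Il1a followed in T with means of 5.65, 4.75, 4.35 and 3.66 TPM. The T libraries of Casp4 (SD 0.68) and Gsdmd (SD 0.548) differed in mean by less than their SD, while those of Casp1 all lay above those of Il1a. Il1b (1.92), Il1rn (1.83) and Nlrp3 (0.229) were the lowest. In WT Casp4 had 0.385, Il1b 0.349 and Il1rn 0.0555 TPM. The effective length that the authors' quantification assigned differed between libraries up to 4.22-fold for Il1rn, 3.07-fold for Casp4 and 2.81-fold for Nlrp3, so TPM and CPM of these 3 need not run in parallel.

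Markers of several cell types moved with these genes. Over all genes tested, 13% were called higher and 11.2% lower in T against WT, and 8.05% lower in TCKO against T. Of 8 microglia markers 7 were higher in T than in WT (median 1.69), with a summed CPM of 1440 to 1910 in T and 423 to 580 in WT. In TCKO against T 6 of the 8 were lower (median −1.1), with 563 to 923 in TCKO. Of the 6 astrocyte markers 4 were higher in T than in WT and 4 were lower in TCKO than in T. Of 6 T cell markers 5 were higher in T than in WT, at a summed CPM of 7.07 to 13.1 in T and 2.05 to 2.41 in WT. In TCKO against T 4 of the 6 were lower (median −2.67), with 1.44 to 3.61 CPM in TCKO. Of 10 markers of neutrophils, another source of Il1b and Il1rn, 5 were tested and 1 was higher in T. Ly6g had 0 reads in all 16 libraries. The list summed to 6.68 to 12.4 CPM in T and 4.48 to 7.77 in WT. Mpo, at a mean of 3.9 CPM in T and 3.62 in WT, was its largest part. The mean log2 level of the 5 tested, relative to the WT mean, was 0.67 to 1.79 in T, −0.62 to 0.6 in WT and −0.02 to 0.69 in TCKO. Of 8 border macrophage and monocyte markers 2 were higher in T than in WT and 4 were lower in TCKO than in T. Neuron markers, which summed to 3940 CPM or more in every library, were lower in T than in WT for 3 of 6. Choroid plexus markers summed to 7660 CPM in T replicate 4 and 7270 in WT replicate 1, and to 19.8 to 417 in the other 14 libraries. The part of these markers in the changes was not tested.

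Set against the mean log2 level of the microglia markers in each library, the genes separated. Relative to WT, Il1rn exceeded the marker mean in T by 2.5 ± 0.45 (SD, n = 4) and Casp4 by 1.67 ± 0.23. Pycard exceeded it by 0.79 ± 0.17, Il1b by 0.59 ± 0.13 and Il1a by 0.57 ± 0.31. Gsdmd (0.1 ± 0.14) and Casp1 (−0.04 ± 0.26) were level with that mean. Nlrp3 (−0.74 ± 0.35), Il33 (−0.64 ± 0.38) and Il18 (−1.57 ± 0.1) stood below it. The markers themselves moved unequally, from P2ry12 (113 CPM in WT and 101 in T) to C1qa (24.5 in WT and 321 in T). A gene above the mean was therefore not above every marker. In TCKO the same measure was 0.29 ± 1.31 for Il1rn, 0.17 ± 0.42 for Casp4 and −0.04 ± 0.17 for Pycard. These are descriptions of log2 ratios, with no test.

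The receptors and decoys of the family showed their own pattern. Of 9 genes, 7 were tested, 3 were higher in T than in WT (median 0.64) and 2 were lower in TCKO than in T (median −0.6). Over all genes tested, 13% were called higher in T than in WT and 8.05% lower in TCKO than in T. Il1rl2, the IL-36 receptor, had 1.52, 0.982, 0.853 and 0.741 CPM in TCKO, 2.93, 1.91, 2.85 and 3.28 in T, 0.451, 0.216, 0.325 and 0.294 in CKO and 0.258, 0.534, 0.36 and 0.53 in WT. TCKO values lay between T and the genotypes without the transgene. Il1rl2 rose by 2.69 ± 0.34 in T against WT (adjusted p = 3.02e-05) and fell in TCKO against T by 1.42 ± 0.32 (adjusted p = 0.00773). Of its ligands, Il36g had 11 reads in 10 libraries, and Il36a, Il36b and the antagonist Il36rn had 0 reads in all.

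Il18bp, which encodes the secreted decoy that binds IL-18, moved although Il18 did not pass. It had 0.651, 1.36, 0.964 and 1.09 CPM in TCKO, 6.08, 8.36, 7.48 and 4 in T, 1.27, 1.72, 0.586 and 0.918 in CKO and 2.39, 1.13, 0.648 and 0.494 in WT. The T libraries were above all others and TCKO lay within the range of CKO and WT. The difference was 2.46 ± 0.44 in T against WT (adjusted p = 7.23e-04), −2.66 ± 0.44 in TCKO against T (adjusted p = 7.42e-04) and −2.62 ± 0.62 as the interaction (adjusted p = 0.0303). Il1rl1, the IL-33 receptor ST2, was higher in T than in WT by 1.9 ± 0.67 (adjusted p = 0.0488). It had only 79 reads in T and 20 in WT, with 0 in WT replicate 1. Under the 28 alternatives 2 to 4 receptor and decoy genes were called in T against WT.

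Downstream signalling genes moved less as a list. Of 13 tested genes 5 were higher and 1 lower in T against WT (median 0.14), beside 13% and 11.2% of all genes tested. In TCKO against T 2 were lower (median −0.09), beside 8.05% of all genes tested. Myd88, the adaptor of IL-1 and Toll-like receptors, rose by 1.31 ± 0.19 and fell in TCKO against T by 1.08 ± 0.19 (adjusted p = 0.00127), with an interaction of −1.36 ± 0.27 (adjusted p = 0.014). Irak4, the first kinase it recruits, rose by 1.66 ± 0.26 in T and fell in TCKO by 1.24 ± 0.25 (adjusted p = 0.00381). Irak3, a kinase-family inhibitor of this signal, rose by 1.47 ± 0.38 in T. The 1 lower gene, named after its values were seen, was Ikbkg (−0.38 ± 0.12). The 6 calls in T against WT became 3 without WT replicate 1, without WT replicate 5, without T replicate 2 or without T replicate 3, and 2 without both choroid-rich libraries, T replicate 4 and WT replicate 1. The 2 calls in TCKO against T became 4 without T replicate 5.

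Of 11 other inflammasome sensor genes only 5 were read often enough to be tested. Beside 13% of all genes tested, 3 of the 5 were higher in T than in WT. These were Naip2 (3.1 ± 0.44), Naip5 (2.95 ± 0.49) and Aim2 (1.41 ± 0.37), the DNA sensor. Naip2 and Naip5, which sense bacterial proteins, were lower in TCKO than in T by log2 values of −1.65 ± 0.41 and −2.03 ± 0.47. They are related copies of a gene family, and no source used here states how reads that match both were counted. Without TCKO replicate 5 only 1 of them was called lower. Of 11 accessory and other executioner genes 10 were tested, 5 were higher and 1 lower in T (median 0.52), and 5 were lower in TCKO against T (median −0.54). Over all genes tested, 13% were called higher and 11.2% lower in T against WT, and 8.05% lower in TCKO against T.

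Casp8 (1.89 ± 0.26), an initiator of apoptosis that can also cut IL-1β, the ATP-gated channel gene P2rx7 (1.22 ± 0.17) and Card19 (1.55 ± 0.22) led that list in T against WT by p. In TCKO against T they differed by −1.54 ± 0.25, −0.81 ± 0.17 and −0.88 ± 0.22, and all 3 were called. Brcc3 (−0.39 ± 0.1), the 1 gene lower in T, was named after its values were seen.

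**Figure D4:**
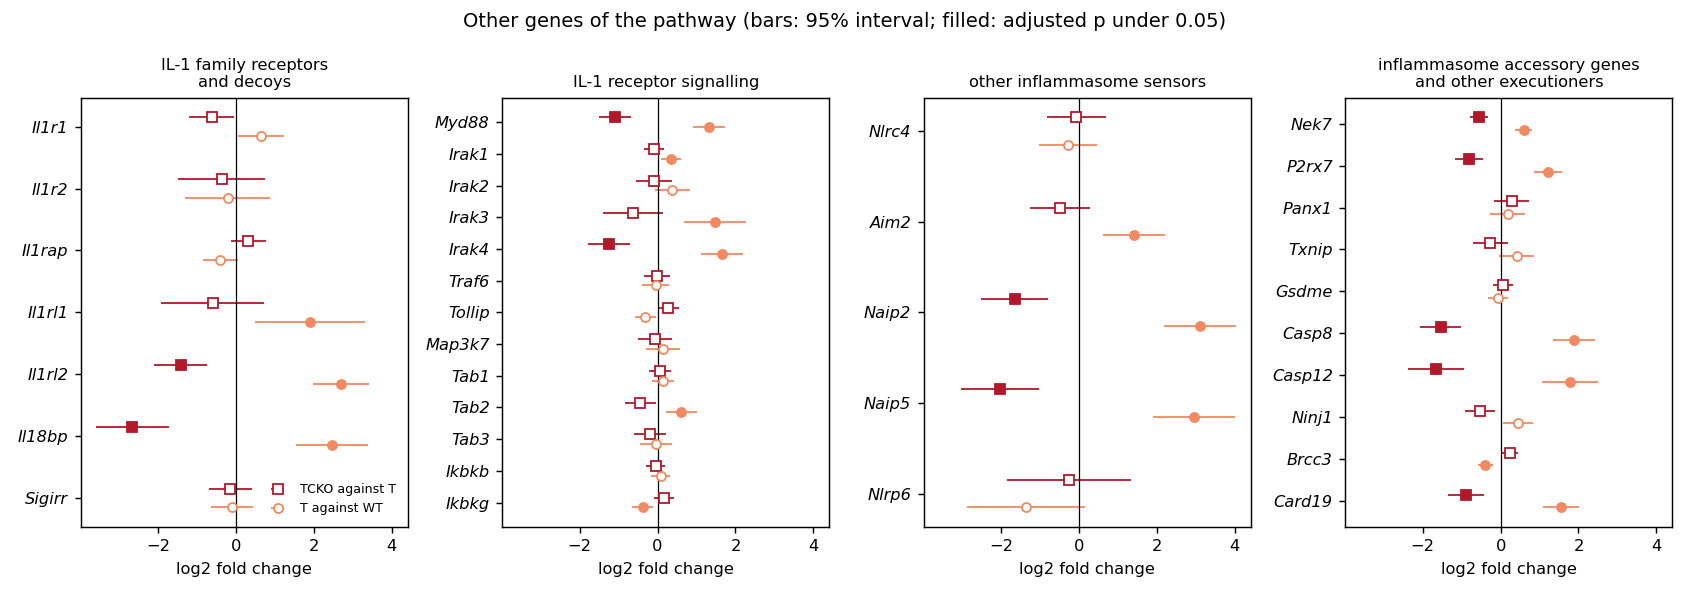
Log2 fold changes of the tested receptor, signalling, sensor and accessory genes for TCKO against T and for T against WT, with 95% intervals and filled points for genes called. In T against WT the points of Il1rl2, Il18bp, Naip2 and Naip5 lie farthest from 0, while most signalling genes lie near 0.

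The genes whose level over the 16 libraries ran closest to each member were found by the root mean square difference of log2 CPM relative to the WT mean. Pycard was tracked to within 0.16 by Cd53, and to within 0.19 by Fcgr3 and B2m. For Il18 the nearest were Rnf5 (0.067), Nom1 (0.074) and Fam162a (0.09), and for Il33 Snx33 (0.2), Rnase4 (0.21) and Cryab (0.22). Casp4 ran closest to Rab7b (0.35), C1qb (0.37) and Ly86 (0.37), Il1a to Tnfrsf1a (0.3), Lair1 (0.31) and Lcp1 (0.32), and Il1b to Hcls1 (0.41). Il1rn lay nearest to Cd48 at 0.47, Gsdmd to Tlr13 at 0.33, Casp1 to Tnfsf10 at 0.37 and Nlrp3 to Ccdc74a at 0.27. All 16 libraries and all genotype differences enter this measure.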

How the data were processed

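Per the labels' protocols, 16 hippocampal libraries were prepared by oligo-dT priming (SMARTer Ultra Low). The submitters' processing notes name bcl2fastq, STAR 2.5.1a, Subread and featureCounts 1.4.6-p5 on GRCm38, without roles. The authors deposited estimated counts per gene, which need not be whole (74.53% of values above 0 were), and, per the file headers, TPM and an effective length per sample. Neither quantifier nor annotation is given in the sources used here. The table's 55774 lines held 55487 genes, since 287 repeat a gene. Of 887792 values, 0 differed from the per-sample files by over 0.01 reads. Coordinates are from GENCODE M21 on GRCm38.

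Estimated counts were rounded and tested with edgeR 4.0.16 (R 4.3.3): TMM, filterByExpr, 1 mean per genotype over all 16 libraries, quasi-likelihood F-tests and Benjamini-Hochberg adjustment over 18565 genes, with a threshold of 0.05. The SE is the log2 fold change over the root of F, which is not usable where F is near 0, as for the Il1rn interaction. The edgeR fit was tried on simulated counts for T against WT and TCKO against T, and the other steps were not. The members and gene lists were chosen with earlier results of these data known. Named genes are all members, up to 3 of each pathway list by p in T against WT and the nearest patterns. Alternatives were DESeq2 1.42.0, limma voom (limma 3.58.1), other scalings and filters, only the groups compared, a replicate block, and leaving out each library or the choroid-rich libraries. limma on log2(TPM + 0.1) and an oligodendrocyte marker covariate were added after seeing the data. Same-numbered T and WT libraries correlated at 0.12, 0.14 and 0.3 around their group means, over 0.1 in all 3 pairs, so blocked values stand beside T against WT and the interaction where they changed a call.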

Additional observations from a re-analysis of the deposited data

Results flagged for a closer look

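Among 40 sets of a gene and a genotype, 5 had a library far from its other 3, where chance gives about 1 set in 20. Pycard had 39.2 CPM in T replicate 2, beside 26.4 to 28.3 in the other T libraries. Casp4 had 5.34 CPM in T replicate 4, beside 3.93 to 4.11. Il1b had 0.696 CPM in CKO replicate 1, beside 0.259 to 0.331. Il1rn had 0.0651 CPM in CKO replicate 4, which was 1 read, and 0 reads in the other CKO libraries. Il18 had 32.7 CPM in WT replicate 4, beside 26.3 to 26.5.

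For 3 genes the tau difference with Ch25h absent differed from that with Ch25h intact by the interaction test. The log2 interaction was −2.64 for Casp4, −2.19 for Il1b and −2.05 for Pycard. Only the Pycard call held in all 27 alternatives, while that of Casp4 was lost in 2 and that of Il1b in 17.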

How the results depend on the processing

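Of the 10 genes, 8 were called in T against WT and 6 to 8 under the 28 alternatives, the 6 with the oligodendrocyte marker covariate. In TCKO against T 7 were called and 6 to 8 under the alternatives. CKO against WT and TCKO against WT gave 0 under all of them. In TCKO against CKO the count of 0 became 2 by DESeq2 (Il1rn and Il33) and 1 with only the groups compared, and 0 to 1 when leaving out 1 library. The interaction count of 3 became 5 by DESeq2, 1 without the choroid-rich libraries and 1 to 3 when leaving out 1 library, the 1 without CKO replicate 4. Casp4 lost its interaction call without the choroid-rich libraries (adjusted p = 0.0743), and Gsdmd its call in T against WT with the covariate (0.0793). Il18 in TCKO against T turned to 0.02 with limma on TPM. The cause was not tested in any of these.

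With the replicate block the counts were 8 in T against WT, 7 in TCKO against T and 2 in the interaction, where Il1b was lost, and no other call of the 10 genes changed. Same-numbered T and TCKO libraries had no common sign of correlation, from −0.14 to 0.17. Over all genes the calls ranged under the alternatives from 1294 to 3278 in TCKO against T (2388 in the fit reported) and from 1537 to 5128 in T against WT (4490). They ranged from 0 to 110 in CKO against WT (2), the 110 by DESeq2, from 4 to 765 in TCKO against CKO (100), from 3 to 495 in TCKO against WT (56) and from 298 to 1266 in the interaction (584). Il1b, Il1rn and Nlrp3 were read fewer than 100 times in every library.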
